A study of Mus musculus with 31 samples.

Results

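Meiotic DNA double-strand breaks at 8 genes of the synaptonemal complex and chromosome axis were examined in 26 hotspot lists from mouse testis. The genes were Sycp1, Sycp2, Sycp3, Syce1, Syce2, Syce3, Tex12 and Hormad1, out of 21887 protein-coding genes placed on the same assembly. They were chosen by name and function, but with earlier results of these data known, among them strong hotspots at Sycp3. Every hotspot whose centre lay inside a gene or within 5000 bp of its ends was taken. This gave 88 hotspots out of 414683 in all lists. Breaks had been mapped by DMC1 SSDS, which pulls down and sequences the single strands that the recombinase DMC1 coats after resection of the break.

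The lists comprise 1 Prdm9 knockout, 19 F1 crosses and 6 inbred strains, with 1 library per strain or cross. The knockout (B6;129P2-Prdm9<tm1Ymat>/J as mother and father) lacks PRDM9, the zinc-finger histone methyltransferase that places most mouse hotspots and whose DNA-binding array differs between strains. In cross names, f marks the mother strain and m the father strain: 13RfXB6m, B6fX13Rm, B6fXC3Hm, C3HfXB6m, B6fXPWDm, PWDfXB6m, B6fXCASTm, CASTfXB6m, B6fXMOLm, MOLfXB6m, C3HfX13Rm, C3HfXCASTm, C3HfXMOLm, CASTfXMOLm, MOLfX13Rm, PWDfX13Rm, PWDfXC3Hm, PWDfXCASTm and PWDfXMOLm. The inbred strains are 13R (B10.F-H2pb1/(13R)J), B6 (C57Bl/6J), C3H (C3H/HeJ), PWD (PWD/PhJ), MOL (MOLF/EiJ) and CAST (CAST/EiJ). The labels used here state neither the age of the mice nor any pooling. A list of break sites holds no measure of the Prdm9 deletion itself, so the targeted gene could not be checked. By the submitters' update, the sample that now carries the CAST label was taken out for a wrong label as a cross of a CAST female with a 13R male, so the identity of this list is in doubt; of its strongest 5000 hotspots, 96.6% to 98.3% were found in each of the 5 crosses with a CAST parent and 0.56% in 13R.

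The knockout list held 30929 hotspots, the F1 lists between 10445 and 19084, and the inbred lists between 14539 and 19528. Read depth is unknown, and the deposited strength score has no stated scale, so strength is given within a list only. The strength percentile is the percentage of a list's hotspots that are weaker, and rank 1 is the strongest hotspot of a list. With 1 library per strain or cross, a difference between lists has no replicate check, except that 5 pairs of reciprocal crosses share their autosomal genotype. Of the autosomal hotspots of 1 list of such a pair, between 74.3% and 99.0% were found in the other list.

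The synaptonemal complex is the protein zipper that joins homologous chromosomes along their length in meiotic prophase. SYCP2 and SYCP3 build the axial and later lateral elements, SYCP1 forms the transverse filaments that cross the gap, and SYCE1, SYCE2, SYCE3 and TEX12 make up the central element. HORMAD1 sits on axes that have not yet synapsed and takes part in break formation. Breaks are made by SPO11 in chromatin that PRDM9 has marked; in mice without PRDM9, breaks are made mainly at promoters and other sites that carry the same histone mark for other reasons.

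In the knockout, every one of the 8 genes had a hotspot at its transcription start. The hotspot centre lay within 1000 bp of an annotated start in 8 of 8 genes, against 54.1% of 17492 protein-coding genes with an annotated start. It also lay within 500 bp in 8 of 8, against 48.3% of those genes. The promoters of 4 of them are shown, each running from 250 bases before to 50 after the start, from the RefSeq table for GRCm38.p6: Syce1, because its hotspot was the strongest; Tex12, because its centre lay nearest to the start; Sycp1, because its start and its gene body carried different hotspots; and Sycp3, because this gene had hotspots in the most lists. Capitals mark the hexamer CACGTG and the heptamer GCGGGAA on either strand.
Syce1 (chr7:140787805-140788104, minus strand): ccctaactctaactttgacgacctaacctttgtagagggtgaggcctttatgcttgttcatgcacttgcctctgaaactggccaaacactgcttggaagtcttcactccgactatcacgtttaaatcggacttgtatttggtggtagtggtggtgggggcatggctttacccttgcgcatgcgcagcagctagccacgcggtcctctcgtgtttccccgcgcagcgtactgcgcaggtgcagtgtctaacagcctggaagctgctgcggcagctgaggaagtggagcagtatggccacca
Tex12 (chr9:50561219-50561518, minus strand): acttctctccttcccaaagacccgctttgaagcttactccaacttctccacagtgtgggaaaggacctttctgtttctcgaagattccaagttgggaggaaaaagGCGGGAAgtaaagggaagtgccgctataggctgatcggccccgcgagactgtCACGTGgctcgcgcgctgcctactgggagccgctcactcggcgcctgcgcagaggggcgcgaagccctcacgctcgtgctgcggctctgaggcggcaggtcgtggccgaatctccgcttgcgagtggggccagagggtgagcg
Sycp1 (chr3:102936051-102936350, minus strand): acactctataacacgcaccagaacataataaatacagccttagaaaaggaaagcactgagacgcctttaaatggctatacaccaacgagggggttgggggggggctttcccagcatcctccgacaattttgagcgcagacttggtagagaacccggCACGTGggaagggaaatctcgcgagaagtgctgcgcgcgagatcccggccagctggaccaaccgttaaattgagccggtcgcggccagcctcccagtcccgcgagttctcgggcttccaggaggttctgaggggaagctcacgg
Sycp3 (chr10:88459337-88459636, plus strand): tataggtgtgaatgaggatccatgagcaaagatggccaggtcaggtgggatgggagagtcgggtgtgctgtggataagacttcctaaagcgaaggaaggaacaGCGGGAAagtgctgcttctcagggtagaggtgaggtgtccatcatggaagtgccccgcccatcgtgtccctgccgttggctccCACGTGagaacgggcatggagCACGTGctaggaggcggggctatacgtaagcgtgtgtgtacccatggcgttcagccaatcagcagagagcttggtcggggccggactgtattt
CACGTG, an E-box, occurred in a promoter of 5 of the 8 genes (Sycp1, Sycp3, Syce2, Tex12 and Hormad1) and in 7.84% of 21263 protein-coding promoters of this length. GCGGGAA, the core of an E2F site, occurred in 4 of the 8 (Sycp3, Syce2, Tex12 and Hormad1) and in 5.95% of promoters. The Syce1 promoter held neither, although its knockout hotspot was the strongest of the 8. A gene was counted when any of its promoters matched, whereas the percentages count each promoter on its own, so the units differ. These matches describe the letters of the windows only. The dinucleotide CG occurred 14 times in the Syce1 window, 26 times in that of Tex12, 21 in Sycp1 and 15 in Sycp3, with a median of 13 over all promoters. Among the promoters not shown it occurred 10 times at Sycp2, 5 and 15 times at the 2 of Syce3, 19 and 33 times at the 2 of Syce2 and 24 times at each of the 2 of Hormad1.

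The axis genes had knockout hotspots of very different strength. At Sycp2 (chromosome 2, 178345295 to 178407776, minus strand) the hotspot from 178405487 to 178409234 was centred 298 bp into the gene, at rank 2786 and percentile 91.0. At Sycp3 (chromosome 10, 88459587 to 88473236, plus strand) the hotspot was the widest of the 8, with 6276 bp from 88456296 to 88462571, and ranked 6511 (percentile 78.9). It was also the one hotspot of the 8 centred upstream, 154 bp before the start. The weakest of the 8 was at Hormad1 on chromosome 3, centred 409 bp into the gene at rank 11642 (percentile 62.4).

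The strongest 3 of the 8 lay at Syce1, Syce2 and Sycp1. Sycp1, the transverse filament gene on chromosome 3, had its hotspot centred 325 bp into the gene at rank 1423 (percentile 95.4). Among central element genes, Syce1 on chromosome 7 ranked 332 (percentile 98.9, centre 181 bp into the gene), and Syce2 on chromosome 8 ranked 1164 (percentile 96.2, centre 287 bp from the nearer of its annotated starts). The other two central element genes ranked below the axis gene Sycp2: Tex12 on chromosome 9 ranked 4412 (percentile 85.7), centred 26 bp from its start, and Syce3 on chromosome 15 ranked 4721 (percentile 84.7), centred 150 bp from its nearer start. The gene span of Il18 also covers the centre at Tex12. In none of the 8 cases did the start of another protein-coding gene in the table lie within 1000 bp of the hotspot centre.

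The 8 hotspots had a median percentile of 88.4 (62.4 to 98.9), and their centres lay a median of 234 bp from the start. Over the 9456 protein-coding genes with a knockout hotspot within 1000 bp of a start, the medians were 73.5 and 208 bp. The centre lay inside the transcribed side of the start in 7 of 8 genes, against 72.3% of those genes, so this share was near the background.

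**Figure D1:**
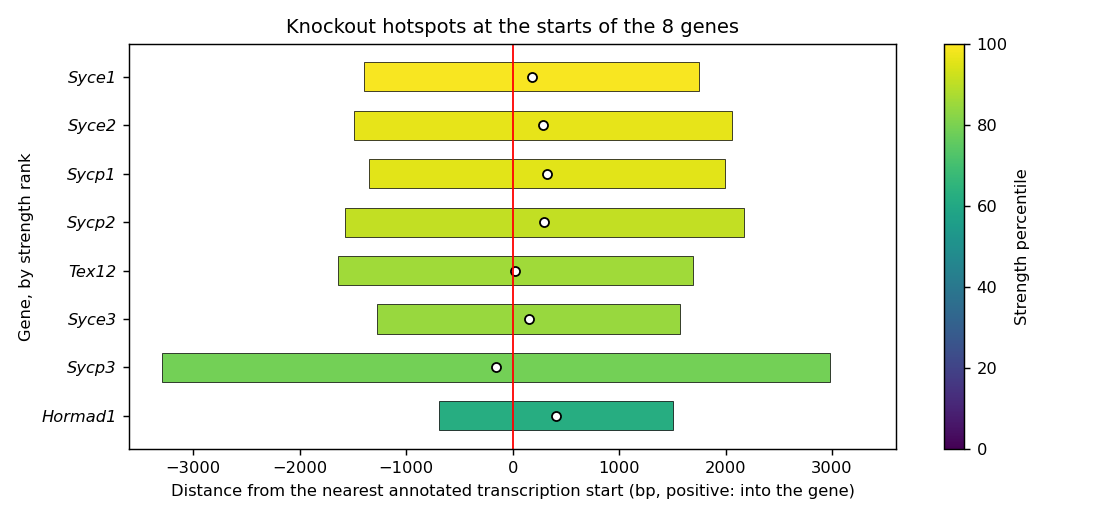
Knockout hotspots at the 8 genes, drawn as intervals against distance from the nearest annotated transcription start in bp (positive into the gene), ordered by rank from the strongest and coloured by strength percentile, with a dot at each centre. Each interval covers the start, the centres lie within 409 bp of it, and the interval at Sycp3 is the widest.

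Of 12 other genes of the axis and synaptonemal complex, 11 had a knockout hotspot centred within 1000 bp of a start, against the 54.1% of all genes, at a median percentile of 81.4 (43.9 to 95.6). The centre lay on the transcribed side in 6 of these 11. The strongest were at Rnf212 (rank 1356), Smc3, a cohesin core subunit (rank 1434), and Stag3, a meiotic cohesin subunit (rank 1519), the last shared with the start of Gpc2. Hormad2, the paralogue of Hormad1, ranked 2587 (percentile 91.6), well above Hormad1 itself. The exception was the cohesin gene Rad21l, whose nearest knockout hotspot, at rank 694, lay 1871 bp upstream of the only start in the table. The centre of this hotspot (151670404) still lay inside the gene span (151644366 to 151670622, minus strand).

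Of the 8 genes, 8 had a knockout hotspot within the wider window of 5000 bp around the gene, against 66.2% of all protein-coding genes. A total of 14 knockout hotspots lay in these windows. The other 6 comprised 3 inside Sycp3, described below, and 3 beyond gene ends: at Hormad1, 1044 bp past the far end and within 1000 bp of the start of Golph3l (percentile 72.1), at Sycp2 (2909 bp, percentile 28.6), and at Syce3 (2241 bp, percentile 30.8), inside the span of Klhdc7b.

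Most knockout hotspots at these genes were not found in mice with PRDM9, and Sycp3 held most of those that were. A hotspot was taken as found in another list when the centres lay less than 400 bp apart. Of the 14, 5 were found in at least 1 of the 25 other lists, against 6.15% of 29991 autosomal knockout hotspots, and 3 of these 5 were the ones inside Sycp3. Of the 8 hotspots at transcription starts, 2 were found elsewhere, each in 1 cross with a PWD mother. The Syce1 start had a hotspot in PWDfXB6m, centred 132 bp from that of the knockout, at rank 15408 of 17518 (percentile 12). The Sycp3 start had one in PWDfXC3Hm, 352 bp away, at rank 16476 of 16571 (percentile 0.573). Both were weak in those lists. Over all autosomal knockout hotspots, 3.31% were found in PWDfXB6m and 1.11% in PWDfXC3Hm.

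**Figure D2:**
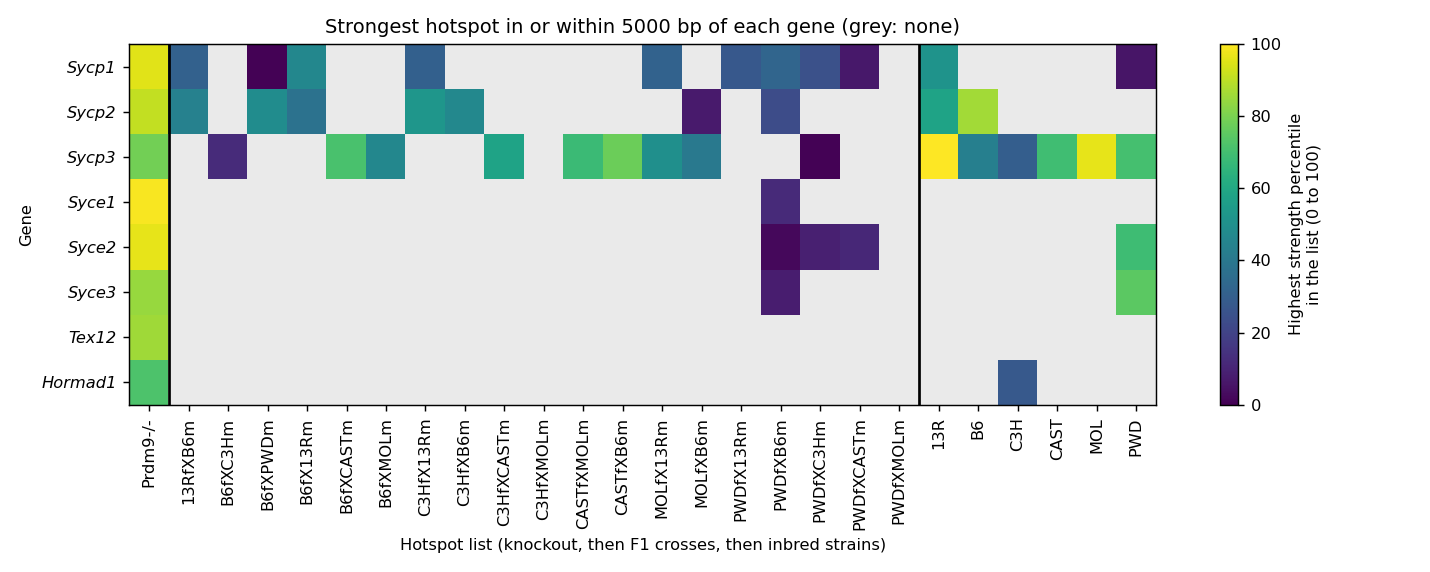
Highest strength percentile of a hotspot inside or within 5000 bp of each gene (rows) in each of the 26 lists (columns: the knockout, then F1 crosses, then inbred strains, divided by lines); grey marks no hotspot. The knockout column is filled for all 8 genes, Tex12 has no other filled cell, and Sycp3 is filled in 16 lists.

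In mice with PRDM9 the 8 genes did not stand out as a group. At least 1 F1 list had a hotspot at 6 of them, against 61.7% of all protein-coding genes, and at least 1 inbred list at 6, against 63.9%. The number of genes with a hotspot was between 0 and 5 in the F1 lists. It was 5 in PWDfXB6m (Sycp1, Sycp2, Syce1, Syce2 and Syce3), where 31.5% of all genes had one, and 0 in C3HfXMOLm (26.4% of all genes) and PWDfXMOLm (28.6%). Among inbred lists it was 4 in PWD (25.7% of all genes), 3 in 13R (25.6%), 2 in B6 (30.6%) and C3H (24.8%), and 1 in CAST (26.6%) and MOL (27.2%). Tex12, the shortest of the 8, had no hotspot in any of these 25 lists, Syce1 had only the weak one in PWDfXB6m, and Hormad1 had only one in C3H (chromosome 3, 95562773 to 95565080, percentile 27.8). Among the 12 other axis genes, 9 had a hotspot in an F1 list and 9 in an inbred list.

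Each place at these genes that was held by 1 inbred strain was found in no cross lacking that strain, though often not in all crosses with it. The PWD place in Sycp1 and the C3H place in Hormad1 were found in no cross at all. How many of all 70060 places held by 1 strain share this absence was not counted, so it is not a trait of these genes. For every autosomal place in the 6 inbred lists, the mean strength percentile (0 where no hotspot was found) was compared between crosses with a parent strain that held the place and crosses with none, by a two-sided exact permutation test over the 19 crosses, with Benjamini-Hochberg adjustment over 78867 places. The p-values treat crosses as independent, although many share a parent. Of 10 places at the 8 genes with crosses on both sides, 1, the Sycp3 place 10143 bp from the start, had 18 crosses against 1 (C3HfXCASTm), for which the smallest exact permutation p is 0.0526, so it could not pass. Of the other 9, 3 were higher in crosses with the parent, which is close to the 36.6% of all places. The median difference was 3.72 percentile points over these 9 and 7.64 over all places.

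All 3 belonged to 13R. Inside Sycp1, 13R had a pair of neighbouring hotspots, 8886 bp (102925999 to 102928430) and 6500 bp (102928536 to 102930665) into the gene. The hotspot farther from the start was found in 5 of 5 crosses with a 13R parent, at percentiles of 29.0 in 13RfXB6m, 46.2 in B6fX13Rm, 30.8 in C3HfX13Rm, 31.6 in MOLfX13Rm and 27.7 in PWDfX13Rm, and in 0 of 14 others. The groups do not overlap, and the mean was 33.1 ± 7.51 (SD, n = 5) against 0 (n = 14, exact permutation test, adjusted p = 0.000391). How many of all places separate in this way was not counted. Of the strongest 100 autosomal 13R hotspots, 94 were found in all 5 crosses with a 13R parent. The neighbour nearer the start was also found in 5 of 5 and 0 of 14 crosses, at 31.0, 8.61, 25.8, 2.76 and 2.14 in the same order, with a mean of 14.1 ± 13.4 (SD, n = 5; exact permutation test, adjusted p = 0.000391). Inbred 13R stood at 51.2 and 33.6, above each of these crosses. With 5 against 14 crosses no exact permutation p below 8.6e-05 can be had, and both hotspots had that unadjusted value.

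Sycp2 carried 1 hotspot of 13R and 1 of B6 at opposite ends of the gene. The 13R hotspot (178353835 to 178355700) lay 9472 bp from the 3' end. It was found in 3 of 5 crosses with a 13R parent, at percentiles of 43.8 in 13RfXB6m, 37.8 in B6fX13Rm and 52.4 in C3HfX13Rm, against 58.2 in inbred 13R. It was absent from MOLfX13Rm, PWDfX13Rm and all 14 other crosses. The mean was 26.8 ± 25.0 (SD, n = 5) against 0 (n = 14; exact permutation test, adjusted p = 0.0291), and the call was lost without 13RfXB6m (adjusted p = 0.0957), B6fX13Rm (0.0927) or C3HfX13Rm (0.0968). The B6 hotspot (178403831 to 178406696) lay 2395 bp from the start, where its interval overlapped that of the knockout hotspot. It was found in 4 of 10 crosses with a B6 parent, at 48.7 in B6fXPWDm, 46.6 in C3HfXB6m, 23.1 in PWDfXB6m and 7.10 in MOLfXB6m, and in 0 of 9 others; inbred B6 stood at 86.2. The difference did not pass (12.6 ± 19.9, SD, n = 10, against 0, n = 9; exact permutation test, adjusted p = 0.182).

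Hotspots of PWD at the central element genes had low percentiles in the crosses and higher ones in PWD. The PWD hotspot at Syce2 (84876531 to 84878556) was held by 3 of 6 crosses with a PWD parent, at percentiles of 2.30 (PWDfXB6m), 8.82 (PWDfXC3Hm) and 11.2 (PWDfXCASTm), against 68.9 in inbred PWD. The difference of 3.72 percentile points between crosses with and without a PWD parent did not pass (exact permutation test, adjusted p = 0.0523). At Syce3 the PWD hotspot (89396773 to 89398950) was held by 1 of the 6 crosses, PWDfXB6m, at 8.12, against 74.8 in inbred PWD (crosses with against without a PWD parent: exact permutation test, adjusted p = 0.529). At Sycp1 the PWD hotspot near the middle of the gene was weak in PWD itself (percentile 5.62), and 4 crosses with a PWD parent had a hotspot whose centre lay 520 to 885 bp away, too far to be counted as the same place.

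**Figure D3:**
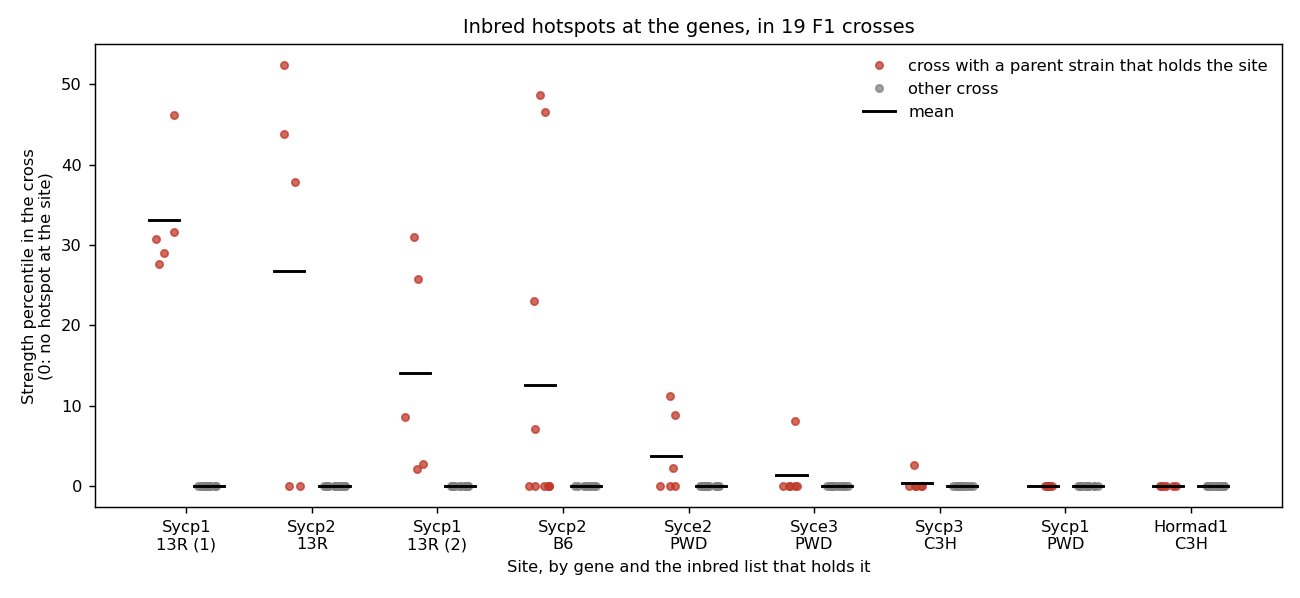
Strength percentile in the 19 F1 crosses (points; 0 where no hotspot was found) at 9 inbred places in the genes, for crosses with a parent strain that holds the place (left of each pair) and other crosses (right), with the mean as a bar. The other crosses are all at 0, and for the hotspot of 13R in Sycp1 farther from the start all 5 crosses with a 13R parent lie between 27.7 and 46.2.

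Of the 8 genes, Sycp3 had hotspots in the most lists. It held 44 of the 88 hotspots, in 16 lists, against a median of 5 lists per protein-coding gene, and 83.0% of genes had hotspots in fewer lists. Of the 8, 1 gene, Sycp3, had a hotspot within 5000 bp in at least 5 of the 6 inbred lists, as did 9.14% of protein-coding genes, a share that includes hotspots at unrelated positions in each strain. Most of them fell at 4 places inside the gene, 2966, 6947, 10143 and 13287 bp from its start, the last of them 362 bp before its 3' end. The 2 nearer the 3' end also lie in the span of Chpt1, a phosphatidylcholine synthesis gene on the minus strand that overlaps the 3' part of Sycp3 by 3724 bp.

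The 4 places recurred across strains. Of 78875 autosomal places in the inbred lists, 70060 were held by 1 strain only. At the other extreme, 3 were held by at least 5 of the 6 strains (0.0038%), and all 3 were in Sycp3, held by 13R, B6, CAST, MOL and PWD. A further 18 places were held by 4 strains, among them the fourth place in Sycp3 (13R, B6, MOL and PWD), so that 0.0266% were held by at least 4. The count of 3 was found with centres less than 200 or 1000 bp apart as well, and was 0 in the strongest 50% of each list. When at least 4 of the 5 strains other than 13R were asked for, 16 places qualified, 3 of them in Sycp3. The places at 1 gene are not independent of each other.

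Centres at these places agreed closely between strains. Over the 5 inbred lists they spanned 14 bp at the place 2966 bp from the start, 46 bp at 6947, and 113 bp at 13287, and over 4 lists 250 bp at 10143, while interval widths ran from 996 to 3706 bp over all lists at the 4 places. The knockout, which has no PRDM9, had hotspots at 2 of the places. One was centred 27 bp from the place 2966 bp into the gene, at rank 30896 of 30929 (percentile 0.107), and matched 11 other lists. Another was centred 127 bp from the place at 10143 bp (percentile 56.7) and matched 6 lists, whereas 1.6% of autosomal knockout hotspots matched at least 4. A further knockout hotspot (percentile 58.0) was centred 7536 bp into the gene and matched only MOLfX13Rm, whose hotspot was counted at the place at 6947 bp. The knockout interval (88465899 to 88468348) overlapped that of 13R at this place (88464915 to 88468114). Its centre lay too far from the place to be counted there.

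Strength at the 4 places differed widely between inbred lists. In 13R they ranked 55, 59, 105 and 3 from the start of the gene to its end, and together they held 0.241% of the summed strength of that list. This strength in 13R was known when the genes were chosen. In MOL the place near the 3' end ranked 589 (percentile 96.3), and the other places had percentiles of 70.4, 84.6 and 75.1. The 4 places held 0.0451% of summed strength in MOL, 0.022% in PWD, 0.0153% in CAST (3 places), 0.00572% in B6 and none in C3H. The place near the 3' end (chromosome 10, 88471976 to 88473781 in 13R) had percentiles of 99.98 in 13R, 96.3 in MOL, 69.4 in CAST, 69.3 in PWD and 43.3 in B6. C3H had none of the 4 and a hotspot 4925 bp past the 3' end instead (percentile 30.0); in C3HfXB6m the matching hotspot was centred 5188 bp past it (percentile 2.58), just outside the window.

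**Figure D4:**
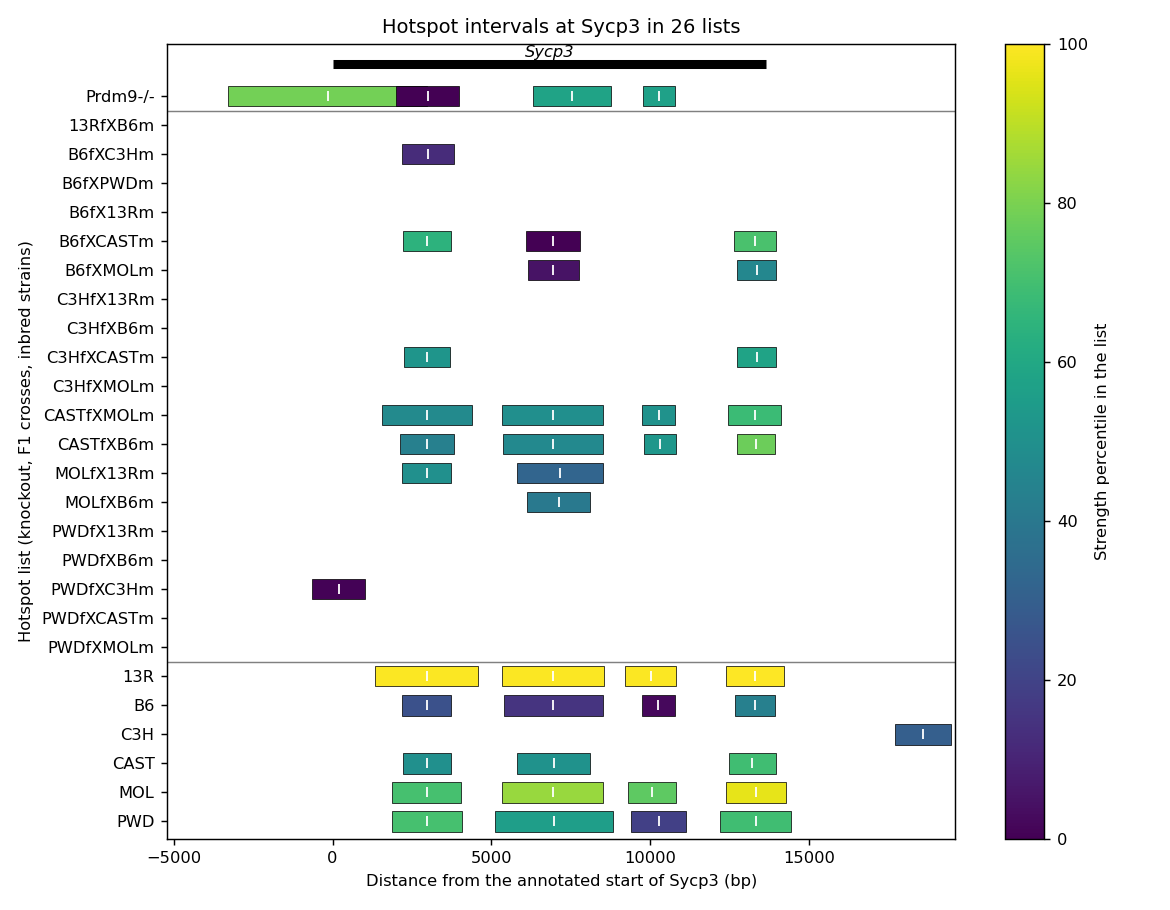
Hotspot intervals at Sycp3 in the 26 lists (rows: the knockout, F1 crosses, inbred strains), against distance from the annotated start of the gene in bp and coloured by strength percentile, with a tick at each centre and the gene as a black bar. Intervals line up at 4 places across 13R, B6, MOL and PWD, and at 3 of them in CAST. Of 19 crosses, 8 have intervals at 1 to 4 of them. In the knockout, centres matched at 2 of them, and another interval overlaps the place 6947 bp from the start. The crosses of 13R with B6, C3H and PWD have none of the 4.

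The strong 13R hotspots at Sycp3 were absent from crosses with 13R, except for 2 of them in MOLfX13Rm. The place near the 3' end was found in 0 of 5 crosses with a 13R parent and in 5 of 14 others (B6fXCASTm 71.3, B6fXMOLm 46.1, C3HfXCASTm 57.9, CASTfXMOLm 68.0 and CASTfXB6m 77.6). The mean was 0 ± 0 (SD, n = 5) against 22.9 ± 32.6 (n = 14), a difference of -22.9 percentile points, which did not pass (two-sided exact permutation test, p = 0.257). All 19 crosses have a parent strain that holds this place, so crosses with and without a holding parent could not be compared. The counts do show that the place, at rank 3 in inbred 13R, was not called in any of the 5 crosses with a 13R parent. The places 2966 and 6947 bp from the start were each found in 1 cross with a 13R parent, MOLfX13Rm, at percentiles of 49.8 and 32.4, and in 5 of 14 others. The place at 10143 bp was found in 0 of 5 and in 2 of 14.

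Nearly all other strong 13R hotspots were found in these crosses. Of the strongest 100 autosomal hotspots of 13R, 94 were found in all 5 crosses with a 13R parent and 1 in 4 of them. The remaining 5 were found in at most 1 cross, and 4 of these 5 were the places in Sycp3. Those found in none of the crosses numbered 2 (2% of the 100), and both were in Sycp3. Rank 3, the strongest autosomal hotspot of 13R, was among them.

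Over the 19 crosses, 8 had a hotspot at 1 or more of the 4 places. By parent, counting each cross under both of its parents, they were 1 of 5 crosses with a 13R parent, 5 of 10 with B6, 2 of 6 with C3H, 4 of 5 with CAST, 4 of 6 with MOL and 0 of 6 with PWD, although all 4 places were hotspots in PWD. The 4 places were held in full by 6 lists: CASTfXMOLm, CASTfXB6m, 13R, B6, MOL and PWD. 

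Reciprocal crosses differed in how many of these places they held. CASTfXB6m had 4 and B6fXCASTm 3, B6fXMOLm had 2 and MOLfXB6m 1, and B6fXC3Hm had 1 and C3HfXB6m 0, while both crosses of 13R with B6 and both of PWD with B6 had 0. Over the 5 pairs, 4 of the 7 Sycp3 places found in either cross were found in both. At the other inbred places of the 8 genes the count was 4 of 9, and the 3 places of 13R in Sycp1 and Sycp2 were found in both crosses of 13R with B6. No such count was made over all inbred places, so it is not known whether these shares are unusual.

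No exon annotation or genome sequence was used here, so the 4 places were not compared with the exons of Sycp3. Whether the reads behind them came from the chromosomal gene was not tested, and the ranks and strain counts given for Sycp3 hold for the deposited hotspot calls only. What sets a library's signal at these places was not tested, and in the inbred lists a property of the library and one of the strain cannot be told apart.

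Likeness to Sycp3 across lists was moderate at best. Among protein-coding genes over 100000 bp away, the vector of highest percentiles over the 26 lists was most like that of Sycp3 at Prlr (Pearson's r = 0.67), Psme4 (r = 0.67) and Ankrd50 (r = 0.65), as a description over lists that share parents. The 3 genes had percentiles of 74.3, 76.4 and 89.8 in CAST, and of 23.8, 17.2 and 32.4 in 13R, where the highest at Sycp3 was 99.98.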

How the data were processed

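The authors deposited 26 lists, each with a chromosome, start, end and strength score per hotspot; the 5 input samples of the 31 samples carry no list and were not used. The submitters' processing notes name mm10, CASAVA 1.8 and MACS2 2.0.10; the labels used here state no filters, depth or formula of the deposited score. Of the scores, 104 in 22 lists lie below 0. Starts were read as 0-based and are printed 1-based. Genes and promoters came from RefSeq tables for GRCm38.p6, the primary assembly of mm10.

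Inbred centres less than 400 bp apart on the 19 autosomes were chained into places. The permutation test (Python 3.11.15, numpy 2.4.6) was tested on simulated data; the threshold was 0.05. The 3 strongest hotspots per gene, the nearest outside the window and the genes most like Sycp3 were chosen by rule. For the 12 other axis genes and the 2 promoter motifs, no rule of choice is stated here. The 8 genes and all of the lists just named were chosen with earlier results of these data known. The recurrence of places across inbred lists, the 500 bp distance, the reciprocal pairs and the strongest 100 hotspots of 13R were chosen after their values were seen. Alternatives covered the window, the overlap, the matching distance, stronger hotspots, the strength measure and each cross left out. For the place at the 3' end of Sycp3, only crosses with a 13R parent were left out.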

Additional observations from a re-analysis of the deposited data

Results flagged for a closer look

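In groups of 4 to 10 lists, 16 sets of values with any spread were screened for 1 list that stood far from the others, and 7 did so. Chance flags about 1 in 20 sets of continuous values. That rate does not hold for 2 of the 7, where 1 cross had a hotspot and the others were at 0, nor for the 4 at Sycp3, which share a gene and a library and whose strength in 13R was known when the genes were chosen.

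The 4 sets at Sycp3, given as a description, were the share of summed strength at the Sycp3 places in 13R against the other inbred lists. The share in 13R was 0.0501% at the place 2966 bp from the start of the gene, with 0.0073% in the next list, and 0.0483% at 6947 bp, with 0.0104% in the next. It was 0.0376% at 10143 bp, with 0.00748% in the next list, and 0.105% at the place near the 3' end, with 0.0207% in the next.

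The other 3 were single crosses. For the 13R hotspot in Sycp1 farther from the start, B6fX13Rm stood at percentile 46.2, above the next of the 5 crosses at 31.6. At the C3H hotspot past the end of Sycp3, C3HfXB6m stood at 2.58 and the other 5 crosses with a C3H parent at 0. At the PWD hotspot in Syce3, PWDfXB6m stood at 8.12 and the other 5 crosses with a PWD parent at 0.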

How the results depend on the processing

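The knockout count of 8 genes lay between 6 and 8 under 6 alternatives, and the inbred count of 6 genes between 4 and 6. With the strongest 50% or 5000 hotspots of each list, the count of 6 genes with an F1 hotspot was 2 and 1. The count of 5 knockout hotspots found elsewhere was 1 and 0 with these filters, and 3 with centres less than 200 bp apart. Fewer hotspots enter with these filters, and no share of all genes or of all knockout hotspots is given for comparison. The count of 3 places that followed the parent was 0 of 9 tested with the strongest 50% and 0 of 7 with the strongest 5000. Of all places tested with these filters, 33.6% and 32.9% passed, so the fall was not shared by places in general. The count was 2 to 4 with each cross left out, where 35.3% to 37.2% of all places passed. With centres less than 1000 bp apart the PWD place in Sycp1 passed, at 10.7 percentile points (exact permutation test, adjusted p = 0.0118). The Sycp3 place at 10143 bp had a difference of 5.75 points with 18 crosses against 1, and of -0.839 with the strongest 50%. These values compare different groups of crosses. The B6 and PWD hotspots at this place (percentiles 1.96 and 19) lie outside the strongest 50%, so those strains no longer counted as holding it. The Syce2 place passed without B6fXPWDm, PWDfX13Rm or PWDfXMOLm, at 4.46 points. The difference at the 3' end of Sycp3 did not pass under any of 11 alternatives (exact permutation p between 0.249 and 0.591). It was -22.9 with each 13R cross left out in turn, which could not change it, since all these crosses stood at 0. Crosses without a 13R parent were not left out in this comparison. The 3 places held by at least 5 inbred lists became 0 in the strongest 50% and 0 in the strongest 5000; with 1 list left out and 4 of the other 5 asked for, they became 4 (without PWD) to 16 (without 13R). No paired analysis was possible because replicate numbers pair no libraries across groups; the 5 reciprocal pairs share their autosomal genotype and are compared in the report. Unknown depth limits statements on hotspots not found, which may lie under the calling limit.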
